A study of Mus musculus with 5 samples.

Results

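The 34 cell cycle and DNA replication genes described here comprise 23 genes used in mitosis and 11 genes used in S phase, the period of DNA synthesis. They were taken by symbol from a fixed list that is commonly read as a measure of proliferating cells, with no threshold on measured values. The count table holds 56941 gene identifiers, of which 19713 reached 10 counts in at least 1 pool and were tested, and all 34 cell cycle genes were among the genes tested.

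RNA was sequenced from the iridocorneal angle, the ring of tissue between iris and cornea through which aqueous humor leaves the eye. The DBA/2J group comprised 3 pools from a strain that develops pigment dispersion and glaucoma and carries mutant alleles of Gpnmb and Tyrp1. The Gpnmb+ group comprised 2 pools from a control strain on the same background that has functional Gpnmb but still carries the Tyrp1 mutation. The labels give the mice as untreated, 12 months old and of both sexes. Each pool was stated to combine tissue from 3 mice, although the library names list 3 animals for each DBA/2J pool and 2 for each Gpnmb+ pool. Iris and ciliary body were removed under a microscope and some remnants can stay attached. Total counts ran from 43900661 to 49837758 per pool. Gpnmb stood at 43.6 to 52.0 CPM (TMM-scaled counts-per-million) in DBA/2J and at 2260.5 and 2555 CPM in Gpnmb+ (log2 fold change −5.67, SE 0.14, adjusted p = 0.000231, edgeR), in the order the labels give. Xist, transcribed from the inactive X chromosome of females, was counted 596, 0 and 2417 times in the DBA/2J pools and 7843 and 9152 times in the Gpnmb+ pools. Ddx3y, a gene of the Y chromosome, was counted 3608, 4168 and 1567 times in DBA/2J and 0 and 4 times in Gpnmb+. The counts thus went against the stated mix of sexes in both Gpnmb+ pools, which held almost no male RNA, and in DBA/2J pool 2, which had no count of Xist. Sex therefore ran with genotype, and the parts of sex and genotype in a difference between genotypes cannot be told apart.

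A dividing cell passes through G1, S, G2 and mitosis. At the G1 to S transition cyclin E with its kinase and the E2F transcription factors turn on genes for the replicative helicase, the polymerase clamp and nucleotide synthesis. Later the MuvB complex, together with Mybl2 and then Foxm1, raises the genes of G2 and mitosis through a promoter element known as the cell cycle genes homology region (CHR). Resting cells keep both groups low, and CDK inhibitors such as p21 hold cells out of the cycle. In the anterior eye the corneal and limbal epithelium renews itself throughout life, whereas trabecular meshwork cells of adult animals rarely divide. In bulk tissue, fewer cycling cells and less cell cycle RNA per cell cannot be told apart.

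The promoters were read for the elements by which these genes are known to be grouped, and many but not all windows held them. RefSeq windows from 250 bases before to 50 bases after the transcription start, listed on GRCm38.p6 and placed on GRCm39 by exact match, were at hand for 28 of the 34 genes (30 windows, since Mcm7 has 2 and Prc1 has 2 that overlap each other). Both strands were searched for 3 motifs. The CHR motif was spelled TTTGAA or, as a variant, TTCGAA. The E2F motif was spelled TTCGCGC, with the variant TTGGCGC and a further variant TTCCCGC. The third was the CCAAT box, spelled CCAAT. The CHR motif lay in 16 of the 20 mitosis windows (80.0%) and 2 of the 10 S phase windows (20.0%), beside 19.2% of all 32851 promoter windows. The E2F motif lay in 3 of the 20 mitosis windows (15.0%) and 5 of the 10 S phase windows (50%), beside 8.07% of all windows. A CCAAT box lay in 18 of 20 (90.0%) and 8 of 10 (80.0%), beside 37.4% of all windows, and every window of these genes with a CHR motif also held a CCAAT box (18 of 30, 60.0%, beside 7.52% of all windows with both). These matches describe letters in the windows and are not evidence of bound sites. Among the genes printed here, Plk1 and Top2a had the 2 widest gaps between the Gpnmb+ pools, Cdk1 has matches of all 3 kinds, and Mcm5 and Mcm6 are 2 helicase subunits that peaked in another pool than the mitosis genes. Capitals mark the motif matches on either strand.
Plk1 (chr7:121758408-121758707, plus strand): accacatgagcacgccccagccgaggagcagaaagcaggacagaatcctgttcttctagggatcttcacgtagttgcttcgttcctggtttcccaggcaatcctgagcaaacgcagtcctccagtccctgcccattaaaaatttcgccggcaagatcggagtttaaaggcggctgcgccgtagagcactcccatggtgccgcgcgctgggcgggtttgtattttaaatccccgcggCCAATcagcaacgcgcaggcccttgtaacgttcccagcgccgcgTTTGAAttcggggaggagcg
Top2a (chr11:98914966-98915265, minus strand): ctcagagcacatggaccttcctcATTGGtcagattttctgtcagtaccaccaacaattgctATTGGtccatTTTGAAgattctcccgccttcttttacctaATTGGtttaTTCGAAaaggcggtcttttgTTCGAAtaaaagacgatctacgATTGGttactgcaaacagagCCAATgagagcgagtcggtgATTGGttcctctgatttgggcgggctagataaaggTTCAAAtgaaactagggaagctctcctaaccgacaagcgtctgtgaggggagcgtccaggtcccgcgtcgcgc
Cdk1 (chr10:69188693-69188992, minus strand): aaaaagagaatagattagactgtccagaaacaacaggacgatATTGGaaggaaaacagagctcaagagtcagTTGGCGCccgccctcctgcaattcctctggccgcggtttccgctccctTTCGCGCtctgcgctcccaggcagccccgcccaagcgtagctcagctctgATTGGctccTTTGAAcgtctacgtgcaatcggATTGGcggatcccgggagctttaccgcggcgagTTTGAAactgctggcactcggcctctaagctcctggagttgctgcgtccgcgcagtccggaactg
Mcm5 (chr8:75835887-75836186, plus strand): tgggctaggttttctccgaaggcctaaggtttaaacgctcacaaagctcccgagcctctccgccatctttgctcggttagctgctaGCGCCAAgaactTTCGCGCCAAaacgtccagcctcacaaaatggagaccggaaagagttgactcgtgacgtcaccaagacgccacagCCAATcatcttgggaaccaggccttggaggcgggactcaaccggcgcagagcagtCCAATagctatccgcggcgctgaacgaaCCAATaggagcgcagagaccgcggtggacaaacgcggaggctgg
Mcm6 (chr1:128287393-128287692, minus strand): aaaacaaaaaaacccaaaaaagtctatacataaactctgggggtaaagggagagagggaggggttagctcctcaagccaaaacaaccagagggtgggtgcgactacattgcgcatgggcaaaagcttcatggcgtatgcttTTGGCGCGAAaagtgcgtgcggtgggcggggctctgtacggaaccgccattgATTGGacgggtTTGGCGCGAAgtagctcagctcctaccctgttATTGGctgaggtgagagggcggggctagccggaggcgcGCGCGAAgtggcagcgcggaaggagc
The Plk1 and Top2a windows hold CHR and CCAAT matches and no E2F match. The Mcm5 and Mcm6 windows hold E2F and CCAAT matches and no CHR match. Other S phase genes that were highest in DBA/2J pool 1 were mixed. E2F matches lie in the Mcm3 window and both Mcm7 windows. The Mcm2 window holds a CHR match and no E2F match, and the Pcna and Tyms windows hold neither. The printed windows are therefore examples and do not show that motifs go with the pool in which a gene was highest.

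The comparison of genotypes asked whether cell cycle genes differ between the DBA/2J angle and the Gpnmb+ angle. No cell cycle gene was called: 0 of 34 reached an adjusted p of at most 0.05 with a fold change of at least 1.5 in edgeR, beside 157 of 19713 genes tested (0.796%). None reached an unadjusted p under 0.05 either, against 15.9% of all genes, and the lowest adjusted p was 0.648, for Kif23. DESeq2 called 0 of 34 (4.7% of all genes) and limma-voom 0 of 34 (0.964%). The pools of the 2 genotypes overlapped in level for all 34 genes, whereas they did not overlap for 34.5% of all genes. Fitted log2 fold changes (DBA/2J over Gpnmb+) ran from −0.50 for Ccne1 to 0.11 for Aurka with a median of −0.18, against −0.02 over all genes, and 29 of 34 lay below 0, against 52.6% of all genes. Their standard errors, 0.19 to 0.67, were large beside these values. Limma-voom gave 21 of 34 above 0, so the side of 0 was not settled by these 5 pools.

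The levels of these genes differed more between pools of 1 genotype than between genotypes. The heat map of the 34 genes shows every mitosis gene at its highest in Gpnmb+ pool 1 and at its lowest in Gpnmb+ pool 2, with the 3 DBA/2J pools between. The comparisons among pools of 1 genotype that follow were chosen after the values were seen, have 1 library on a side and carry no test. Gpnmb+ pool 1 was at least 2-fold above Gpnmb+ pool 2 for 27 of 34 genes, beside 5.12% of all genes tested and 2.13% of the 12855 genes whose mean log2 CPM reached that of the lowest cell cycle gene. For 25 of 34 genes Gpnmb+ pool 1 was highest and DBA/2J pool 1 second (5.51% of all genes), 27 of 34 were highest in Gpnmb+ pool 1 (19.5%) and 29 of 34 lowest in Gpnmb+ pool 2 (25.0%). The 27 genes past 2-fold comprised all 23 mitosis genes and the S phase genes Mcm5, Mcm6, Rrm2 and Ccne1, and Mcm2 lay just short of 2-fold.

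**Figure D1:**
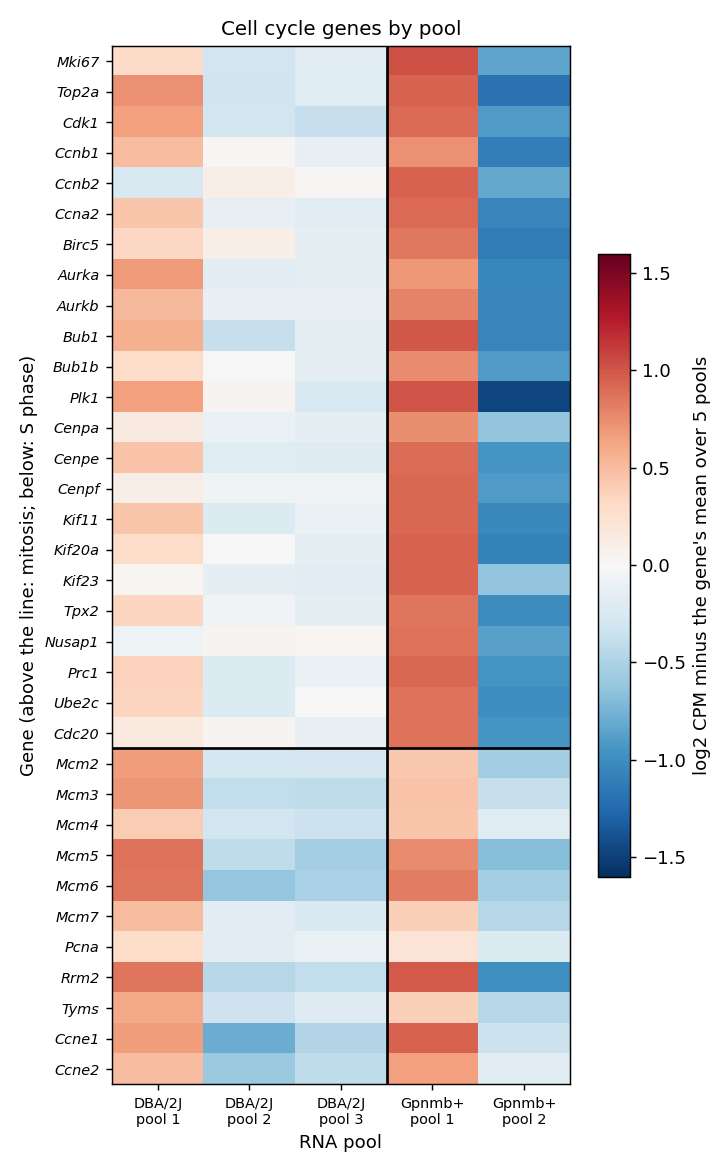
Heat map of log2 CPM minus the mean of each gene over the 5 pools, with genes in rows (23 mitosis genes above the line, 11 S phase genes below) and pools in columns; red is above and blue below the mean of the gene. All 23 mitosis genes were highest in Gpnmb+ pool 1 and lowest in Gpnmb+ pool 2, while 7 of 11 S phase genes were highest in DBA/2J pool 1.

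Mki67, which coats mitotic chromosomes and encodes the Ki-67 proliferation marker (ENSMUSG00000031004, chromosome 7), had 74.8, 49.2 and 53.5 CPM in DBA/2J pools 1, 2 and 3 and 123 and 33.8 CPM in Gpnmb+ pools 1 and 2. The group values were 59.2 ± 13.7 CPM (SD, n = 3) in DBA/2J and 78.2 ± 62.8 CPM (SD, n = 2) in Gpnmb+, a difference within the spread (log2 fold change −0.40, SE 0.50, adjusted p = 0.748, edgeR). The 95% interval of that log2 fold change ran from −1.63 to 0.82. Gpnmb+ pool 1 thus exceeded every DBA/2J pool and Gpnmb+ pool 2 fell below every one. Behind these 2 values stood 6221 and 1654 counts, and their ratio of 3.63 had an exact binomial 95% interval of 3.43 to 3.83, which covers counting error only. Top2a, the topoisomerase that untangles sister chromatids (ENSMUSG00000020914), had 99.8, 48.2 and 52.5 CPM in DBA/2J and 116 and 26.5 CPM in Gpnmb+. Its 4.37-fold gap between Gpnmb+ pools stood beside a genotype log2 fold change of −0.09 (SE 0.62, adjusted p = 0.960, edgeR).

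The mitotic kinase and its cyclins were likewise highest in Gpnmb+ pool 1 and lowest in Gpnmb+ pool 2. Cdk1, the kinase that drives entry into mitosis, had 24.2, 12.5 and 11.9 CPM in DBA/2J and 28.9 and 8.16 CPM in Gpnmb+. Ccnb1, its main mitotic cyclin, had 17.6, 12.6 and 11.5 CPM in DBA/2J and 20.9 and 5.79 CPM in Gpnmb+. Ccna2, the cyclin of S phase and G2, had 35.1, 23.4 and 22.9 CPM in DBA/2J and 48.1 and 12.4 CPM in Gpnmb+. In all 3, DBA/2J pool 1 came next after Gpnmb+ pool 1. Ccnb2, the second B-type cyclin, had 7.92, 10.2 and 9.57 CPM in DBA/2J and 18.2 and 5.36 CPM in Gpnmb+, and among the 23 mitosis genes it and Nusap1 were the ones in which DBA/2J pool 1 was the lowest of its genotype. Genotype log2 fold changes for the 4 genes ran from −0.35 for Ccnb2 to 0.06 for Ccnb1, with adjusted p-values from 0.767 to 0.965 (edgeR).

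Among the mitotic kinases, Plk1, which acts in centrosome maturation, chromosome segregation and cytokinesis (ENSMUSG00000030867), had the widest gap between the Gpnmb+ pools. Its values were 11.5, 7.52 and 6.16 CPM in DBA/2J pools 1, 2 and 3 and 14.7 and 2.60 CPM in Gpnmb+ pools 1 and 2, from 511, 323, 275, 746 and 127 counts. The ratio of counts scaled to depth between the Gpnmb+ pools was 5.66 (exact binomial 95% interval 4.69 to 6.89, counting error only). Between genotypes Plk1 had a log2 fold change of −0.04 with a 95% interval of −1.68 to 1.59, so a change of 2-fold either way lies inside the interval. Aurka, the spindle pole kinase, had 10.3, 5.64 and 5.69 CPM in DBA/2J and 10.3 and 3.07 CPM in Gpnmb+, with DBA/2J pool 1 level with Gpnmb+ pool 1. Aurkb and Birc5, the kinase and the survivin subunit of the chromosomal passenger complex, were 3.63-fold and 3.90-fold higher in Gpnmb+ pool 1 than in pool 2. The checkpoint kinase genes Bub1 and Bub1b, which delay anaphase until chromosomes attach, were 4.13-fold and 3.18-fold higher. None of these 6 genes passed the genotype test, with log2 fold changes from −0.22 (Bub1) to 0.11 (Aurka) and adjusted p-values from 0.890 (Bub1) to 0.986 (Aurkb, edgeR).

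The centromere genes included the smallest gap between the Gpnmb+ pools. Cenpa, the histone H3 variant that marks centromeres, had 7.85, 6.64 and 6.43 CPM in DBA/2J and 11.9 and 4.58 CPM in Gpnmb+, and its 2.58-fold gap was the narrowest of the 23 mitosis genes. Cenpe, a kinetochore motor, and Cenpf, a large kinetochore protein, were 3.57-fold and 3.53-fold higher in Gpnmb+ pool 1 than in pool 2. In Cenpf the DBA/2J pools lay close together, at 26.1, 23.6 and 23.7 CPM, against 46.3 and 13.1 CPM in Gpnmb+. Genotype log2 fold changes of the 3 genes were −0.24, −0.20 and −0.28, with adjusted p-values of 0.808, 0.886 and 0.819 (edgeR).

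Spindle genes followed. Kif11, the motor that separates spindle poles, had 23.8, 14.98 and 16.3 CPM in DBA/2J and 33.1 and 8.50 CPM in Gpnmb+. Kif20a and Kif23, motors of the central spindle and cytokinesis, were 4.06-fold and 2.98-fold higher in Gpnmb+ pool 1 than in pool 2. Kif23 had the lowest p-value of the 34 genes, with 17.6, 15.5 and 15.2 CPM in DBA/2J and 33.01 and 11.1 CPM in Gpnmb+, and still gave a difference within the spread (unadjusted p = 0.315, log2 fold change −0.46, SE 0.42, adjusted p = 0.648, edgeR). The microtubule binding proteins Tpx2, Nusap1 and Prc1, which nucleate or bundle spindle microtubules, were 3.64-fold, 3.32-fold and 3.67-fold higher. Nusap1 had 17.5, 19.1 and 18.9 CPM in DBA/2J and 33.8 and 10.1 CPM in Gpnmb+, so its DBA/2J pools were nearly level. Cdc20 and Ube2c, the activator and the E2 enzyme of the anaphase promoting complex, were 3.53-fold and 3.66-fold higher in Gpnmb+ pool 1. Across the 23 mitosis genes the median gap was 3.62-fold, and the genotype log2 fold change had a median of −0.19, with 21 genes below 0 and 2 above.

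**Figure D2:**
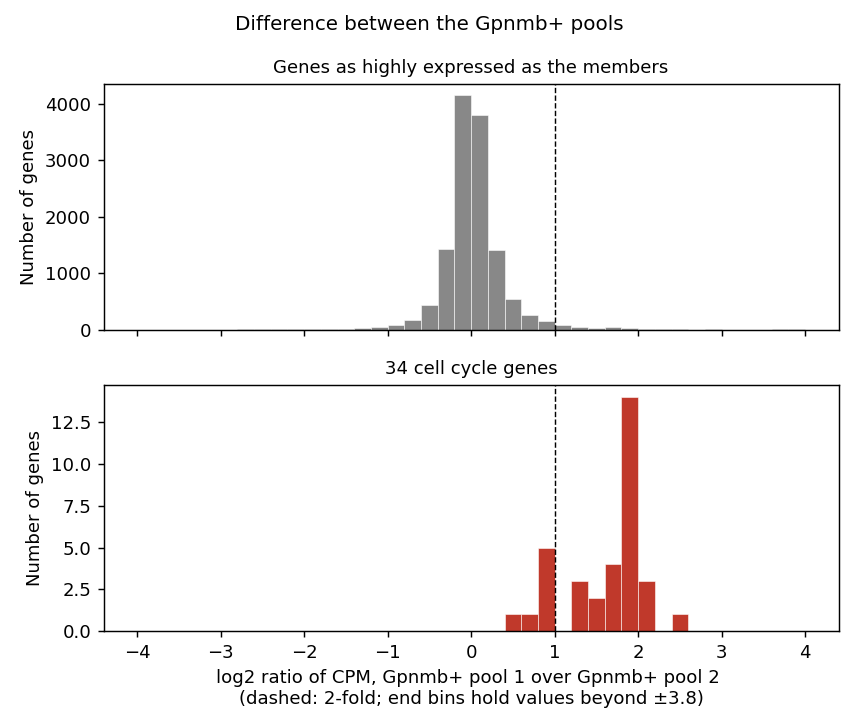
Histograms of the log2 ratio of CPM in Gpnmb+ pool 1 over Gpnmb+ pool 2, in bins of 0.2, for the 12855 genes with a mean level at or over that of the lowest cell cycle gene (upper panel) and for the 34 cell cycle genes (lower panel); the dashed line marks a 2-fold ratio. Most genes lie near 0, and 27 of the 34 cell cycle genes lie beyond the line, against 2.13% of the genes in the upper panel.

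The S phase genes ordered the pools differently. DBA/2J pool 1 was highest for 7 of the 11 genes (Mcm2, Mcm3, Mcm5, Mcm6, Mcm7, Pcna and Tyms), and for none of the 23 mitosis genes. The median gap between the Gpnmb+ pools was 1.79-fold, from 1.36-fold in Pcna to 3.90-fold in Rrm2. Within DBA/2J, pool 1 was at least 1.5-fold above both other pools for 10 of 11 S phase genes and 7 of 23 mitosis genes, 17 of 34 in all, beside 4.72% of all genes tested and 2.55% of genes at the level of these genes.

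The Mcm2 to Mcm7 genes encode the 6 subunits of the replicative helicase. Mcm5 (ENSMUSG00000005410) had 36.6, 15.1 and 13.7 CPM in DBA/2J pools 1, 2 and 3 and 33.7 and 12.4 CPM in Gpnmb+ pools 1 and 2. Mcm6 (ENSMUSG00000026355) had 43.2, 15.5 and 16.6 CPM in DBA/2J and 42.02 and 16.3 CPM in Gpnmb+. In both genes the pools numbered 1 were close to each other across genotypes, and the other 3 pools formed a lower level. Mcm2, Mcm3 and Mcm7 had 32.1, 37.2 and 35.4 CPM in DBA/2J pool 1, against 27.3, 31.04 and 32.5 CPM in Gpnmb+ pool 1. Mcm4 had 51.9, 31.7 and 31.1 CPM in DBA/2J and 53.6 and 34.3 CPM in Gpnmb+ and was the helicase gene in which Gpnmb+ pool 1 was highest. Genotype log2 fold changes of the 6 genes ran from −0.22 (Mcm6) to 0.09 (Mcm2), with adjusted p-values from 0.787 (Mcm4) to 0.981 (Mcm3, edgeR).

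Pcna, the sliding clamp of DNA polymerases, varied least. It had 95.2, 69.03 and 71.7 CPM in DBA/2J and 90.6 and 66.6 CPM in Gpnmb+, with group means of 78.6 ± 14.4 CPM (SD, n = 3) in DBA/2J and 78.6 ± 16.95 CPM (SD, n = 2) in Gpnmb+. Its genotype log2 fold change was −0.00014 (SE 0.19, adjusted p = 0.9997, edgeR), with a 95% interval of −0.47 to 0.47. That interval is the narrowest of the 34 genes and leaves out a change of 1.5-fold. Pcna was also the most abundant per length, at 51.8 CPM per kilobase of transcript averaged over the 5 pools, against 13.1 for Top2a, 12.1 for Ube2c, 6.50 for Mki67 and 1.19 for Ccne2, the lowest.

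Rrm2 and Tyms make DNA precursors. Rrm2, the regulated subunit of ribonucleotide reductase, had 34.01, 13.7 and 14.3 CPM in DBA/2J and 37.1 and 9.49 CPM in Gpnmb+, and its 3.90-fold gap between the Gpnmb+ pools lay within the range of the mitosis genes. Tyms, thymidylate synthase, had 18.02, 9.41 and 10.2 CPM in DBA/2J and 15.5 and 8.63 CPM in Gpnmb+. The E-type cyclins Ccne1 and Ccne2, which bring cells from G1 into S phase, were per length the least abundant of the S phase genes. Ccne1 had 5.76, 2.05 and 2.58 CPM in DBA/2J and 6.98 and 2.82 CPM in Gpnmb+, from 88 to 354 counts, and gave the lowest genotype log2 fold change of the 34 genes (log2 fold change −0.50, SE 0.55, adjusted p = 0.716, edgeR). Ccne2 had 8.28, 3.87 and 4.42 CPM in DBA/2J and 9.24 and 5.19 CPM in Gpnmb+ (log2 fold change −0.39, SE 0.40, adjusted p = 0.695, edgeR). For both cyclins the lowest pool was DBA/2J pool 2 rather than Gpnmb+ pool 2.

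Summed over the 34 genes, the level was 1173 and 419.6 CPM in Gpnmb+ pools 1 and 2 and 949, 595 and 600.3 CPM in the 3 DBA/2J pools, so the 2 Gpnmb+ pools held the highest and the lowest sum. Mitosis genes summed to 793 and 214 CPM in Gpnmb+ and to 551, 379 and 381 CPM in DBA/2J. S phase genes summed to 379.5 and 205 CPM in Gpnmb+ and to 398, 216 and 219 CPM in DBA/2J. The ratio of the mitosis sum to the S phase sum was 1.39 in DBA/2J pool 1, 1.75 and 1.74 in DBA/2J pools 2 and 3, 2.09 in Gpnmb+ pool 1 and 1.05 in Gpnmb+ pool 2. The mean of the centred log2 CPM (each gene minus its own mean over the pools) was 0.35, −0.11 and −0.14 in DBA/2J and 0.88 and −0.98 in Gpnmb+ for mitosis genes. For S phase genes it was 0.63, −0.41 and −0.36 in DBA/2J and 0.59 and −0.45 in Gpnmb+. The pools numbered 1 were therefore near each other for S phase genes and apart for mitosis genes.

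**Figure D3:**
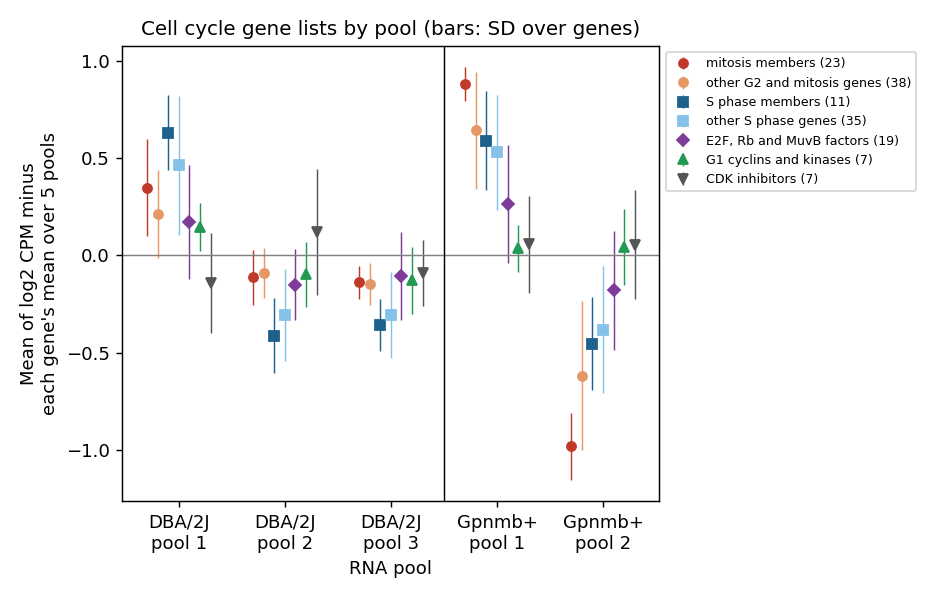
Mean over genes of log2 CPM minus the mean of each gene over the 5 pools, by pool, for 7 gene lists with the number of genes in brackets; bars are the SD over genes, which share a library and are not replicates. Mitosis genes stood at 0.88 in Gpnmb+ pool 1 and −0.98 in Gpnmb+ pool 2, whereas G1 cyclins and CDK inhibitors stayed between −0.14 and 0.15 in every pool.

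Other genes of the cell cycle were read from lists of S phase and of G2 and mitosis genes. Of 35 further S phase genes, 0 were called between genotypes by edgeR (1 at an unadjusted p under 0.05) and 14 were at least 2-fold higher in Gpnmb+ pool 1 than in pool 2. Of 38 further G2 and mitosis genes, 0 were called by any of the 3 tools (0 at an unadjusted p under 0.05 in edgeR) and 25 were at least 2-fold higher. Tk1, the thymidine kinase of cycling cells, had 10.8, 7.18 and 6.19 CPM in DBA/2J and 16.4 and 4.48 CPM in Gpnmb+. Hells, a chromatin remodeller of replicating cells, had 21.7, 8.36 and 8.68 CPM in DBA/2J and 18.7 and 7.01 CPM in Gpnmb+, with DBA/2J pool 1 highest as in most S phase genes. The origin licensing factor Cdt1 and its inhibitor Gmnn were 2.20-fold and 1.81-fold higher in Gpnmb+ pool 1 than in pool 2. DESeq2 called 1 of the 35 further S phase genes, beside 4.7% of all genes. It was Cdca7, an E2F and Myc target that binds Hells, which is named here after its values were seen. Cdca7 had 30.7, 43.1 and 31.9 CPM in DBA/2J and 49.3 and 56.98 CPM in Gpnmb+ (log2 fold change −0.59, SE 0.17, adjusted p = 0.175, edgeR), so its genotypes did not overlap and Gpnmb+ pool 1 was not its highest pool. The genotypes did not overlap for 2 of these 35 genes, beside 34.5% of all genes.

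Of 19 transcription factor and MuvB genes, 0 were called by any of the 3 tools (1 at an unadjusted p under 0.05 in edgeR) and 3 were at least 2-fold higher in Gpnmb+ pool 1. Foxm1, an activator of mitosis genes, had 12.3, 9.69 and 10.2 CPM in DBA/2J and 20.8 and 6.64 CPM in Gpnmb+. Mybl2, the Myb partner of MuvB, had 5.87, 2.38 and 3.00 CPM in DBA/2J and 5.26 and 2.60 CPM in Gpnmb+. Thus Foxm1 peaked in Gpnmb+ pool 1 and Mybl2 in DBA/2J pool 1. E2f1, an activator of S phase genes, varied less, with 10.03, 6.55 and 6.52 CPM in DBA/2J and 9.58 and 7.13 CPM in Gpnmb+. Genotype adjusted p-values were 0.749, 0.961 and 0.858 (edgeR).

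The genes that start or hold the cycle varied less between the Gpnmb+ pools. Of 7 G1 cyclins and kinases and 7 CDK inhibitors, 0 were called by any of the 3 tools (0 at an unadjusted p under 0.05 in edgeR) and 0 were at least 2-fold higher in Gpnmb+ pool 1. Ccnd1, cyclin D1, had 260.4, 209 and 175 CPM in DBA/2J and 249 and 279.7 CPM in Gpnmb+ (log2 fold change −0.30, SE 0.17, adjusted p = 0.454, edgeR). Cdkn1a, which encodes p21, had 88.4, 63.1 and 63.4 CPM in DBA/2J and 83.7 and 84.8 CPM in Gpnmb+ (log2 fold change −0.23, SE 0.16, adjusted p = 0.543, edgeR). Cdkn2a, which encodes p16 and p19ARF, was near its detection limit, with 0.247, 0.582 and 0.381 CPM in DBA/2J and 0.276 and 0.286 CPM in Gpnmb+ from 11 to 25 counts.

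Markers of the cell types that a dissected angle can hold were read beside these sums. The 12 corneal and limbal epithelium markers, 0 of them called by any of the 3 tools (3 at an unadjusted p under 0.05 in edgeR), summed to 11669, 12873 and 8031 CPM in DBA/2J and 14291 and 12890.2 CPM in Gpnmb+. The sum, to which Krt5 and Krt15 gave the most, differed less between the Gpnmb+ pools than Krt12 of the same list, which was 3.07-fold higher in pool 1. Of the 12 markers, 6 were highest in Gpnmb+ pool 2, 3 in Gpnmb+ pool 1 and 1 in each DBA/2J pool. DBA/2J pool 3 was lowest for 10 of the 12 and Gpnmb+ pool 2 for 2, and 10 of the 12 were fitted lower in DBA/2J (52.6% of all genes, edgeR). The median ratio of Gpnmb+ pool 1 over pool 2 across the 12 markers was 0.97. The basal keratin Krt14 was the 1 marker highest in DBA/2J pool 1, with 1364, 702 and 459 CPM in DBA/2J and 901 and 454 CPM in Gpnmb+. Krt5, its partner, had 3724, 3535 and 2095 CPM in DBA/2J and 3825 and 3018 CPM in Gpnmb+, Krt15 of limbal basal cells had 3239, 4483 and 2852 CPM in DBA/2J and 3753 and 4116 CPM in Gpnmb+, and the epithelial regulator Trp63 had 114, 109.9 and 80.3 CPM in DBA/2J and 121 and 124 CPM in Gpnmb+. Krt12, the keratin of differentiated corneal epithelium, had 254, 116 and 9.44 CPM in DBA/2J and 1702 and 554 CPM in Gpnmb+ (log2 fold change −3.16, SE 1.16, adjusted p = 0.270, edgeR), which ran from 9.44 to 254 CPM within DBA/2J. The part of epithelial content in the pool differences was not tested.

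Markers of macrophages, T cells, B cells and endothelium were read in the same way. In edgeR 0 markers of these 4 lists were called (6 at an unadjusted p under 0.05, of which 4 were B and plasma cell markers), limma-voom also called 0, and DESeq2 called 1 B cell marker. The 8 macrophage markers summed to 682 to 984 CPM with DBA/2J pool 1 highest, and Adgre1 among them had 82.1, 80.8 and 56.8 CPM in DBA/2J and 94.3 and 55.96 CPM in Gpnmb+. The 8 T cell markers summed to 24.5 to 44.9 CPM and were lowest in Gpnmb+ pool 1. The T cell receptor component Cd3e was at 1.56 to 3.28 CPM. The 6 B and plasma cell markers summed to 6.08 to 15.5 CPM, and the 6 endothelial markers, which include Pecam1 at 86.1 to 143 CPM, to 394 to 509 CPM. Genes called between genotypes were found in other lists. The Schwann cell gene S100b was lower in DBA/2J (log2 fold change −2.04, adjusted p = 0.0262, edgeR). The ciliary epithelium gene Six6 was higher in DBA/2J (log2 fold change 1.74, adjusted p = 0.0265, edgeR). With any 1 DBA/2J pool or Gpnmb+ pool 2 left out neither gene passed (adjusted p from 0.0757 to 0.116, edgeR). Lens (166 to 229 CPM), melanocyte (2717 to 3683 CPM), trabecular meshwork and stroma (4971 to 5755 CPM) and skeletal muscle markers (119.7 to 409 CPM) had 0 called genes each in edgeR and 0, 1, 2 and 1 in DESeq2.

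Reads of some cell cycle genes cannot be assigned with certainty, because the strand used in counting was not given. An opposite-strand gene with at least 10 counts shares exon bases with 12 of the 34 genes. Ube2c overlaps the muscle gene Tnnc2, which was counted 497, 818 and 1348 times in DBA/2J but 572 and 428 times in Gpnmb+, an order of pools unlike that of Ube2c. Nusap1 overlaps Oip5, itself a centromere gene, counted 112, 70 and 77 times in DBA/2J but 233 and 89 times in Gpnmb+. Cdk1 overlaps Ank3, Ccna2 overlaps Exosc9 and Cdc20 overlaps Elovl1. Ccne1 overlaps 1600014C10Rik, counted 2475 to 3994 times per pool and highest in Gpnmb+ pool 2, unlike Ccne1. Ccne2 overlaps Ints8, counted 1362 to 2235 times. Both Ccne2 and Ints8 were highest in Gpnmb+ pool 1 and lowest in DBA/2J pool 2. The part of these neighbors in the counts of the 2 cyclins was not tested. Named pseudogenes of Ccnb1, Ccnb2, Pcna and Tyms reached at most 38 counts in any pool.

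Because the Gpnmb+ pools lay on either side of the DBA/2J mean, the genotype difference turned with the Gpnmb+ pool left out. For the 23 mitosis genes they lay outside all DBA/2J pools, whereas 7 of 11 S phase genes were highest in DBA/2J pool 1. Without Gpnmb+ pool 1, all 34 genes were fitted higher in DBA/2J (median log2 fold change 0.98), 22 had an unadjusted p under 0.05 (16.7% of all genes in that fit) and 0 were called (1.12%), with a lowest adjusted p of 0.0714 (edgeR). Without Gpnmb+ pool 2, all 34 were fitted lower (median −0.80), 16 had an unadjusted p under 0.05 (11.5%) and 0 were called (0.0103%), with a lowest adjusted p of 0.115 (edgeR). The log2 fold change of Plk1 went from 1.70 in the first of these fits to −0.81 in the second, and that of Pcna from 0.24 to −0.20. In these fits the remaining Gpnmb+ pool was assumed to vary like the DBA/2J pools. All p-values here measure the spread between pools.

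**Figure D4:**
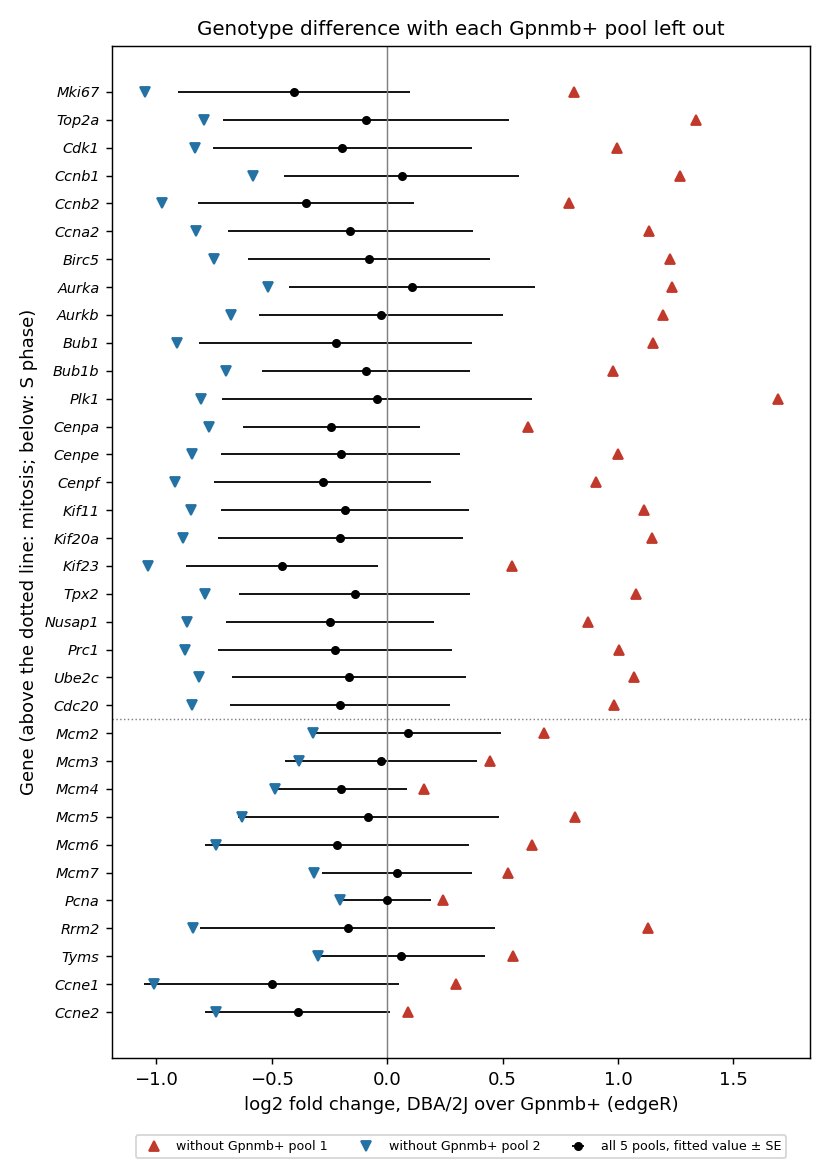
Log2 fold change of DBA/2J over Gpnmb+ for each of the 34 genes (edgeR): black points and bars are the fitted value ± SE over all 5 pools, red triangles the value without Gpnmb+ pool 1 and blue triangles the value without Gpnmb+ pool 2. All red triangles lie above 0 and all blue ones below 0, on either side of a fitted value near 0.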

How the data were processed

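RNA-seq libraries of mouse iridocorneal angle (3 DBA/2J pools, 2 Gpnmb+ pools) were analysed from the deposited table of raw counts, which the authors made by trimming with fastp, aligning to GRCm39 with STAR and counting the reads with a unique alignment for each gene, without normalizing. Whether strand was used is not given in the sources used here. Groups and pool numbers came from the sample titles. Gene names, positions and lengths came from GENCODE mouse release M39, which held 56323 of the 56941 identifiers, and 24930 identifiers had no counts. Genes that reached 10 counts in 1 pool or more were tested with edgeR 4.0.16 (quasi-likelihood test, TMM, no covariate) in R 4.3.3, with a call defined as a Benjamini-Hochberg adjusted p no higher than 0.05 together with a 1.5-fold change or more. A prior count of 2 entered log2 CPM. The script was tested on simulated data. DESeq2 1.42.0 (the tool of the study, whose version is not given in the sources used here, there with moderated fold changes), limma-voom (limma 3.58.1), other filters, DESeq2 size factors, the pool number as a block, other thresholds and each pool left out were alternatives. Tables and figures used Python 3.11.15, numpy 2.4.6, pandas 2.3.3, scipy 1.17.1 and matplotlib 3.10.9.

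Depth was 43900661 to 49837758 counts per pool, and the common biological coefficient of variation was 20.7%. Intervals of count ratios cover counting error and not the variation between mice. The 34 genes and all lists were chosen with earlier results of these data known. Named genes were the 34 genes, called genes of the other lists, a fixed set of regulators and markers, Gpnmb as a check of the labels, and overlapping genes or pseudogenes. In the lists 215 of 216 symbols matched the annotation (Chil1 did not). Promoter windows came from RefSeq tables. The proteomics of the study was not analysed here, and some genes that meet the naming rule are not reported here.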

Additional observations from a re-analysis of the deposited data

How the results depend on the processing

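The count of cell cycle genes called stayed at 0 under every alternative run, and what moved was the sign and the size of their fold changes. The count of genes called overall was 157, 927 with DESeq2, 360 with no count minimum, 1710 with unadjusted p-values, and 1 to 217 with 1 pool left out. The median log2 fold change of the 34 genes ran from −0.80 to 0.98 with 1 pool left out. It was below 0 without any 1 DBA/2J pool or without Gpnmb+ pool 2 and above 0 without Gpnmb+ pool 1. Genes called fell to 1 without DBA/2J pool 2, to 2 without Gpnmb+ pool 2, to 6 without DBA/2J pool 1 and to 17 without DBA/2J pool 3. The 5 pools and the gap between the Gpnmb+ pools limit these comparisons, and the lowest count of a cell cycle gene in a pool was 88. The cause of the changes of sign and size was not tested.

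The pool numbers are shared by 2 pools of each genotype, and nothing in the labels says that equal numbers mark a shared litter or day. Deviations from the group means correlated at r = 0.28 between the pools numbered 1 and 0.25 between the pools numbered 2. The 2 Gpnmb+ pools deviate from their mean as mirror images. DBA/2J pool 1 with Gpnmb+ pool 2 therefore had to give −0.28, and DBA/2J pool 2 with Gpnmb+ pool 1 −0.25. These values are not separate observations and cannot decide whether equal numbers match. With the replicate block the median of the 34 genes was 0.14, 220 genes and 0 cell cycle genes were called (lowest adjusted p of these 0.328), and Krt12 passed the threshold (log2 fold change −2.50, adjusted p = 0.0132, edgeR). In that fit DBA/2J pool 3, the pool with the lowest Krt12, had a block of its own. Its level therefore did not enter the genotype difference, which rested on the pools numbered 1 and 2.

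Log2 fold changes that changed sign with the replicate block were Top2a 0.32, Cdk1 0.17, Ccna2 0.22, Birc5 0.31, Aurkb 0.31, Bub1 0.11, Bub1b 0.21, Plk1 0.54, Cenpe 0.13, Kif11 0.15, Kif20a 0.20, Tpx2 0.21, Prc1 0.087, Ube2c 0.10, Cdc20 0.12, Mcm3 0.12, Mcm5 0.20, Pcna 0.061, Rrm2 0.19, Mybl2 0.022, Tk1 0.014, Krt5 0.095, Adgre1 0.16. With limma-voom they were Top2a 0.19, Ccna2 0.11, Birc5 0.21, Aurkb 0.21, Bub1 0.049, Bub1b 0.12, Plk1 0.38, Cenpe 0.031, Kif11 0.090, Kif20a 0.11, Tpx2 0.12, Prc1 0.032, Ube2c 0.10, Cdc20 0.052, Pcna 0.0016, Rrm2 5.8e-05. Pcna, fitted at almost 0, became 0.0058 with DESeq2, 0.0057 with its size factors in edgeR and 0.019 with no count minimum. With 1 pool left out, log2 fold changes of the cell cycle genes ran over these ranges: Mki67 −1.05 to 0.81, Top2a −0.79 to 1.34, Cdk1 −0.83 to 0.99, Ccnb1 −0.58 to 1.27, Ccnb2 −0.98 to 0.79, Ccna2 −0.83 to 1.14, Birc5 −0.75 to 1.23, Aurka −0.51 to 1.23, Aurkb −0.68 to 1.20, Bub1 −0.91 to 1.15, Bub1b −0.70 to 0.98, Plk1 −0.81 to 1.70, Cenpa −0.77 to 0.61, Cenpe −0.85 to 1.00, Cenpf −0.92 to 0.91, Kif11 −0.85 to 1.11, Kif20a −0.88 to 1.15, Kif23 −1.04 to 0.54, Tpx2 −0.79 to 1.08, Nusap1 −0.87 to 0.87, Prc1 −0.88 to 1.00, Ube2c −0.82 to 1.07, Cdc20 −0.85 to 0.98, Mcm2 −0.32 to 0.68, Mcm3 −0.50 to 0.44, Mcm4 −0.49 to 0.16, Mcm5 −0.68 to 0.82, Mcm6 −0.86 to 0.63, Mcm7 −0.32 to 0.53, Pcna −0.20 to 0.24, Rrm2 −0.84 to 1.13, Tyms −0.30 to 0.54, Ccne1 −1.08 to 0.30, Ccne2 −0.80 to 0.093. Those of other named genes that changed sign ran over E2f1 −0.35 to 0.11, Foxm1 −0.95 to 0.70, Mybl2 −0.55 to 0.53, Gmnn −0.84 to 0.029, Cdt1 −0.44 to 0.71, Hells −0.60 to 0.88, Tk1 −1.03 to 0.85, Krt5 −0.29 to 0.086, Krt14 −0.22 to 0.89, Adgre1 −0.36 to 0.39.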

Other observations

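Some genes outside the cell cycle lists were high in the same pools, DBA/2J pool 1 and Gpnmb+ pool 1. They were chosen after the values were seen and carry no test. Krt16, a keratin of activated and wound-edge epithelium, had 226, 12.8 and 11.1 CPM in DBA/2J and 49.00 and 3.33 CPM in Gpnmb+. Sprr1a, a cornified envelope precursor, had 56.98, 8.78 and 6.75 CPM in DBA/2J and 37.8 and 2.00 CPM in Gpnmb+. Of the 6 genes of this kind that were listed, 3 were at least 2-fold higher in Gpnmb+ pool 1 than in pool 2 (5.12% of all genes tested). The more abundant keratins Krt6a, Krt6b and Krt17 were not, with ratios of 1.21, 1.42 and 0.95.

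Neutrophil genes differed more widely between the pools. S100a9, a calcium-binding protein abundant in neutrophils, had 126, 8.99 and 12.4 CPM in DBA/2J and 45.3 and 4.15 CPM in Gpnmb+. The chemokine receptor Cxcr2 had 30.95, 3.40 and 6.21 CPM in DBA/2J and 13.8 and 1.90 CPM in Gpnmb+. The 8 neutrophil genes listed summed to 265, 37.1, 44.1, 117 and 21.1 CPM (DBA/2J pools 1 to 3, then Gpnmb+ pools 1 and 2), and the granule gene Elane and Ly6g were at or near 0. The 8 interferon response genes summed to 459, 361, 214, 434 and 212 CPM in the same order. Of these, 7 were at least 2-fold higher in Gpnmb+ pool 1 than in pool 2 (5.12% of all genes tested). Krt16 and S100a9 were highest in DBA/2J pool 1, as were 7 of the 11 S phase genes, whereas the mitosis genes were highest in Gpnmb+ pool 1. Of the interferon response genes, Oas2, Oas3, Irf7 and Ifit1 were highest in Gpnmb+ pool 1. Isg15, Rsad2 and Mx1 were highest in DBA/2J pool 1, and Ifit3 in DBA/2J pool 2. The cause of these orders was not tested.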
